A study of Homo sapiens with 6 samples.

Results

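Voltage-gated and potassium channel subunit genes were taken whole by gene symbol, as the *KCN* genes of potassium channels, the *SCN* genes of voltage-gated sodium channels, and the *CACNA*, *CACNB*, and *CACNG* genes of voltage-gated calcium channels, without their antisense and divergent transcripts. The symbols matched 135 of the 60623 genes in the count table. They were followed in TC28a2, an immortalized human chondrocyte line, after 24 hours with 2 μM mocetinostat, a histone deacetylase (HDAC) inhibitor, or with its solvent DMSO (3 samples per condition, described by the study as independent experiments). All 6 samples came from the same unmodified line in monoculture, without a second line or donor, so that differences among primary chondrocytes were not sampled. Total counts were between 4873426 and 11031132 with DMSO and lower after treatment, between 1619344 and 5089542, which left rare transcripts less precise there. In bulk RNA a lower share of cells that express a gene and less RNA of it per cell cannot be told apart.

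Of 11 chondrocyte marker genes, 8 were measured well enough to be tested. The summed level of the 11 was between 117 and 141 CPM (counts scaled to a fixed library size) with DMSO and between 261 and 302 with mocetinostat. *SOX9* was most of that sum, at 106.4 CPM with DMSO and 179.8 with mocetinostat. Of the 8, 6 were upregulated by the rule given next, among them *COL2A1* (log2 fold change 3.70). The other 2, *SOX9* (0.77) and *HAPLN1* (0.89), passed the adjusted p only. *CHAD* had 3 counts or fewer in every sample. The sum of 10 neuron marker genes was between 15.5 and 18.4 CPM with DMSO and between 164 and 201 with mocetinostat, and 7 of the 10 were upregulated (adjusted p under 0.05 and log2 fold change over 1, beside 20.2% of all genes tested), whereas *ELAVL4*, *STMN2*, and *RBFOX3* had too few reads for a test. Of those 7, 4 had fewer than 10 counts in every DMSO sample, where every tested gene was upregulated. The sum of 8 muscle marker genes was between 1.04 and 1.62 CPM with DMSO and between 14.2 and 20.3 with mocetinostat. *MYOG* was at 0 in every sample, *TNNT2*, *ACTA1*, *MYH7*, and *CKM* had 3 counts or fewer in each, and *RYR1* was the only muscle marker tested (log2 fold change 3.68). *DES*, with 0, 0, and 1 counts with DMSO against 26, 3, and 13 with mocetinostat, made up most of the rest of the muscle sum and had too few reads for a test. The summed chondrocyte, neuron, and muscle levels were each higher with mocetinostat in every sample, and their part in the results was not tested.

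Potassium channels let potassium leave the cell and hold the membrane at a negative resting potential, voltage-gated sodium channels carry the fast upstroke of action potentials, and voltage-gated calcium channels turn depolarization into calcium entry. Each channel has pore-forming α subunits, and auxiliary subunits set its gating and its number at the surface. Neurons and muscle fibers use most of these genes, whereas chondrocytes do not fire action potentials and are known for potassium and calcium channels that act in volume regulation and in the response to load.

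Members were divided by depth into 3 kinds. Silent members had 3 counts or fewer in all 6 samples, a limit that corresponded to between 0.271 and 1.86 CPM depending on the library. Trace members exceeded that limit in at least 1 sample but did not pass edgeR's expression filter. Tested members passed it. Of the 135 members, 21 were silent, 50 were trace, and 64 were tested. The share of silent members was 15.6%, compared with 22.2% of all protein-coding genes, and the share of tested members was 47.4%, compared with 63.1% of protein-coding genes, so that the members were more often at trace level. At 0 counts everywhere were *KCNA6*, *KCNV2*, and *CACNG1*, which allows at most the 3-count limit in each library.

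The first comparison asked which of these genes mocetinostat changed. In the quasi-likelihood test of edgeR, adjusted by Benjamini-Hochberg over all 13966 tested genes, 48 of the 64 tested members were upregulated (adjusted p under 0.05 and log2 fold change over 1), which is 75% of them, beside 20.2% of all genes tested and 20.6% of protein-coding genes. No member was downregulated in that fit (0 of 64), beside 8.18% of all genes tested and 8.19% of protein-coding genes. DESeq2, which also tested 45 trace and 4 silent members, gave 0 as well. In the edgeR fit no member had a log2 fold change under −1 at an unadjusted p under 0.05 (5 were lower at that p by any amount). An adjusted p under 0.05 without the fold (another call rule, met upward by 32.9% and downward by 31.4% of all genes, the stronger changes included) was reached upward by *CACNA1C*, *KCNAB3*, and *KCNJ12* and downward by *KCNQ5*, *KCNMA1*, and *CACNG8*, and the other 10 members did not reach that adjusted p. The log2 fold changes of tested members were between −1.06 and 7.79, and 8 of 64 were below 0. The 3 mocetinostat-treated samples were all above the 3 DMSO-treated samples in CPM for 50 of 64 tested members, the upregulated ones included, and all below them for 6, beside 33.7% and 32.8% of all genes tested.

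The filter itself favors rises among genes that were low with DMSO. Of tested genes with fewer than 10 counts in every DMSO sample, 100% were upregulated, since a gene could pass only through the treated samples, and 24 members were of that kind. They included all 3 upregulated *KCNQ* genes, all 3 of *KCNJ*, and the 1 of *CACNB*. They also made up 4 of 7 in the Kv α class, 3 of 5 in *KCNK*, 2 of 4 in *KCNH*, and 2 of 5 in the calcium- and sodium-activated class. In the sodium α, sodium β, and calcium α1 classes they were 2 of 3, 1 of 3, and 3 of 6. Therefore the count was repeated for genes that reached the filter's limit of 2.01 CPM in all 3 DMSO samples, a choice made after seeing the data. There, 14 of 27 members (51.9%) were upregulated and 0 downregulated, beside 11.7% and 9.46% of 12047 genes, and the median log2 fold change was 1.12 for the members and −0.13 for all of these genes. None of the 2 *KCNJ*, 1 *KCNQ*, and 2 *CACNB* genes among the 27 was upregulated. From the classes in which every tested gene was upregulated, the 27 held few genes. They were 2 Kv α genes and 1 each of *KCNH*, *KCNK*, sodium β, and calcium α2δ. Among genes with a mean of at least 10 CPM over all samples, 18 of 25 members (72.0%) and 13.1% of 10262 genes were upregulated. The 37 tested members below the limit in at least 1 DMSO sample had 34 rises, where 74.2% of 1919 such genes rose.

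Other processing gave other counts. Without the filter, 64 members rose and 2 fell, beside 7.9% and 5.23% of genes. With at least 10 counts in every sample, 16 of 25 tested members rose and 0 fell, beside 14.9% and 6.47%. In libraries thinned to the smallest total, 27 of 40 rose and 1 fell, beside 16.3% and 7.39%. Scaling to *GAPDH* gave 52 and 0, beside 31.7% and 2.03%, and glmTreat gave 45 and 0, beside 14.8% and 3.33%. Counts stayed at 48 and 0 with library size only (20.5% and 7.81% of genes), with RLE size factors (20.5% and 7.74%), and with the replicate number as a block (20% and 8.11%). In each of these, members rose at a higher share than genes as a whole. Among genes that had 10 or more counts in a DMSO sample, 24 of 40 members (60%) and 15.9% of 13250 genes rose. That set is not free of the filter's effect. Only 27 members reached the filter's limit in all 3 DMSO samples, so some of the 40 needed treated samples to pass.

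**Figure D1:**
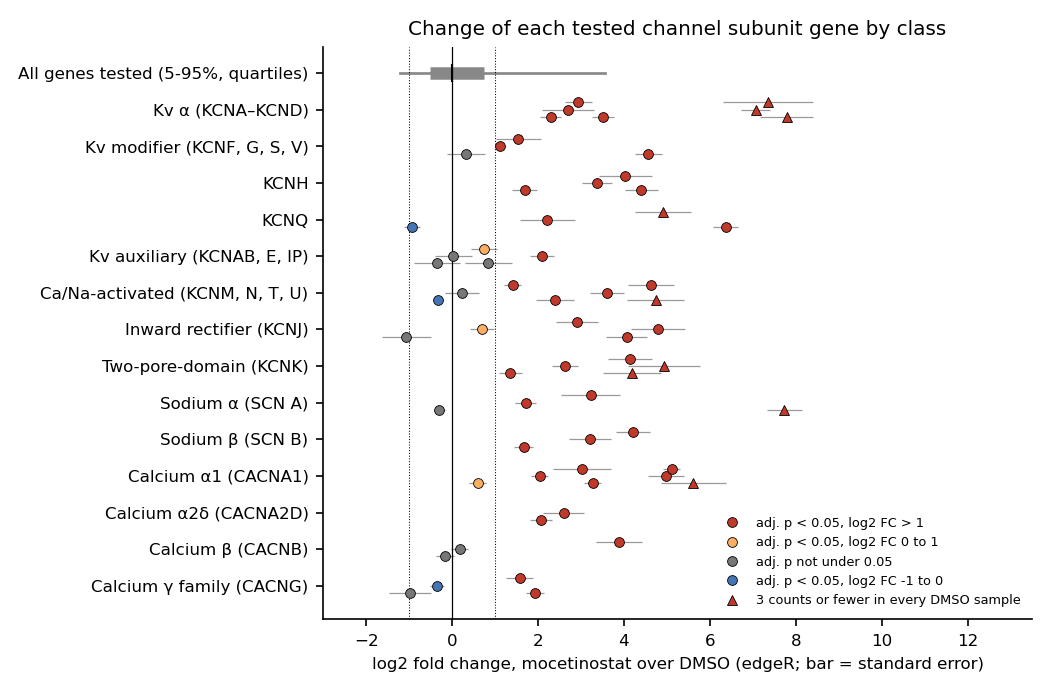
Each point is 1 tested member by class (y axis) with its edgeR log2 fold change, mocetinostat over DMSO (x axis), and its standard error as a bar; triangles mark members with 3 counts or fewer in every DMSO sample, whose fitted fold change depends on the model, and the row for all genes gives quartiles and the range from the 5th to the 95th percentile. Most points lie right of 1, and points left of 0 are few, with *KCNJ14* the lowest at −1.06.

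Added over all 135 members, the level was 513 ± 30.1 CPM (SD, n = 3) with DMSO and 1355 ± 12.7 CPM with mocetinostat, a ratio of 2.64. The DMSO-treated samples were all lower than the mocetinostat-treated samples. The ratio was 3.64 for the 91 members of the Kv α, Kv modifier, *KCNH*, *KCNQ*, *KCNJ*, *KCNK*, sodium α, and calcium α1 classes. That set leaves out the calcium- and sodium-activated class (ratio 1.29), which holds *KCNMA1* and other pores beside β subunits. Between classes the ratio differed, from 1.27 for the calcium channel β subunits, where the groups overlapped, to 10.5 for the Kv α subunits. With DMSO, 57 members never exceeded 3 counts, and with mocetinostat 26, although the mocetinostat libraries were smaller. The limit was crossed upward by 36 members and downward by 5. The same crossings were not counted over all genes, so whether the members differ from other low genes in them was not tested. Of all 716 tested genes with fewer than 10 counts in every DMSO sample, 100% were upregulated.

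Counts are given below for replicates 1, 2, and 3 in that order, and CPM values are means ± SD (n = 3) after TMM normalization. The Kv α subunits of the *KCNA* to *KCND* families form the delayed rectifier and A-type channels that end action potentials. Of 17 genes, 5 were silent, 5 were trace, and all 7 tested genes were upregulated. *KCNA1*, a Shaker-type subunit of axons, had 0, 0, and 1 counts with DMSO against 83, 19, and 38 with mocetinostat. Nearly nothing was counted in the controls, and every treated sample was well above the limit. The ratio of pooled counts, scaled for depth, was 349.5 with a 95% counting interval from 61.7 to 13900 (adjusted p = 1.05e-18). The fitted log2 fold change was 7.79, and it was 9.21 without DMSO replicate 3, the only control library with a read, and 7.0 without DMSO replicate 1.

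Among the Shaw-type subunits of fast-firing neurons, *KCNC4* had 70, 25, and 27 counts and 108, 56, and 61 counts, and rose from 5.17 ± 1.18 to 27.1 ± 6.84 CPM, the smallest log2 fold change of the tested Kv α genes at 2.30. *KCNC1* had 30, 14, and 9 counts with DMSO against 91, 28, and 44 with mocetinostat (log2 fold change 2.94). *KCNA2* had a log2 fold change of 2.70. For each of these genes the groups did not overlap.

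*KCNA4*, the pore of a rapidly inactivating A-type channel, had 0 counts in each DMSO sample and 17, 8, and 9 with mocetinostat. Against the 3-count limit per DMSO library this was at least 9.01-fold higher (adjusted p = 4.47e-09). In the edgeR fit it was the only upregulated member at 0 in all 3 controls. DESeq2, with its weaker filter, also called trace members at 0 in every control, such as *KCNJ9*. *KCND1*, another A-type subunit, was trace, with 15, 12, and 13 counts in DMSO samples and 10, 0, and 9 in mocetinostat-treated samples. Its mean was 1.92 CPM and 1.90 CPM, and the groups overlapped. By level per kilobase of exons, *KCND1* made up 30.8% ± 6.42 of the Kv α class with DMSO and 2.13% ± 2.04 with mocetinostat. Here and below, exon length joins all annotated transcripts of a gene, so that shares, ranks, and ratios between genes depend on it.

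The sequence before the start of 4 members is shown to set side by side 3 genes with few or no reads in the controls that rose and 1 gene that was expressed in the controls and did not rise. They are the 250 bases upstream of the RefSeq transcription start on GRCh38.p14, 5′ to 3′ on the gene's strand, for *KCNA4* (chr11:30017031-30017280, minus strand), *SCN9A* (chr2:166375945-166376194, minus), *CACNA1D* (chr3:53494361-53494610, plus), and *KCNQ5* (chr6:72621814-72622063, plus). Capitals mark the GC box GGGCGG, read on either strand, with overlapping copies joined.
KCNA4: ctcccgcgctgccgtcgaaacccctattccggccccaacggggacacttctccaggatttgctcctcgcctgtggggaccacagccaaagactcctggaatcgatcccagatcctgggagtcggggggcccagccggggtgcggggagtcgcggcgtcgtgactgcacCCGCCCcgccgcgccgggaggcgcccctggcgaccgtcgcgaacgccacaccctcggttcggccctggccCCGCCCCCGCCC
SCN9A: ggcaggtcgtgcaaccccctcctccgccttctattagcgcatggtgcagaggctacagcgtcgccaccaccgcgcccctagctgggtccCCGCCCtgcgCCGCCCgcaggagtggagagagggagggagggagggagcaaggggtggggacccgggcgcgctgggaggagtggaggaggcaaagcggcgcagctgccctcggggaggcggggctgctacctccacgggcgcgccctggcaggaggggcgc
CACNA1D: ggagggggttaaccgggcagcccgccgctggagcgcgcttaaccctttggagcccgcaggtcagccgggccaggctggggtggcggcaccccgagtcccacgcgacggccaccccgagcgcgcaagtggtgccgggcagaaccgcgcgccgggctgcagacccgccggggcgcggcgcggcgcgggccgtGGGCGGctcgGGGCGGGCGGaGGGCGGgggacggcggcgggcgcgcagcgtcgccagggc
KCNQ5: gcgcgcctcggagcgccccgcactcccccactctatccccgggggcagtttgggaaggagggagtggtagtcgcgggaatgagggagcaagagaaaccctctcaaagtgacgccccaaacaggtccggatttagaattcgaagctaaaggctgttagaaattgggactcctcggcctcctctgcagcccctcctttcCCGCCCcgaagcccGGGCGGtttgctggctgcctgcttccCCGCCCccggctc
All 4 windows were rich in G and C (73.2% for *KCNA4*, 74.0% for *SCN9A*, 81.6% for *CACNA1D*, and 64.0% for *KCNQ5*, with a median of 58.0% over the 35116 windows of the table). They held 30, 22, 41, and 18 CG dinucleotides in that order, where the median window held 11. GGGCGG was found 3, 2, 4, and 3 times, and 42.6% of all windows held it at least once. The letters TATAAA, present on either strand in 10.7% of all windows, were in none of the 4. Because windows were matched for 97 of the 135 members (71.9%), no comparison over the whole group was made, and the 4 were chosen after their counts were seen.

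The modifier subunits of the *KCNF*, *KCNG*, *KCNS*, and *KCNV* families carry no current alone and change the channels formed by other Kv subunits. Of 10 genes, 1 was silent, 5 were trace, and 4 were tested, of which 3 were upregulated. *KCNG1* (ENSG00000026559, chr20:51003656-51023107) was the most abundant member per kilobase of exons in both conditions, at 15.5 CPM per kb with DMSO and 33.5 with mocetinostat. It had 797, 447, and 585 counts and 886, 293, and 451 counts, or 83.8 ± 10.7 and 181.4 ± 5.63 CPM. Its log2 fold change of 1.12 ± 0.10 was close to the threshold of 1. It was 0.869 without the filter and 0.997 without DMSO replicate 1, and glmTreat, which tests against that threshold, gave an adjusted p of 0.173. *KCNS3* had 12, 4, and 9 counts with DMSO against 138, 40, and 66 with mocetinostat, and rose from 1.08 ± 0.247 to 26.5 ± 1.48 CPM (log2 fold change 4.57 ± 0.31, adjusted p = 7.37e-22). Per kilobase it moved from rank 31 to rank 3 among the members. *KCNG3* had 43, 19, and 13 counts with DMSO against 20, 5, and 12 with mocetinostat, with overlapping CPM values (log2 fold change 0.32 ± 0.44, adjusted p = 0.539). *KCNS1* was upregulated at 1.54 (adjusted p = 0.00816) but not with DESeq2 (adjusted p = 0.0912), without the filter (0.0975), with glmTreat (0.232), without DMSO replicate 1 (0.0649), or without mocetinostat replicate 3 (0.0968).

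*KCNH* genes encode the ether-à-go-go channels, among them *KCNH2*, the hERG channel that repolarizes heart muscle. Of 8 genes, 1 was silent, 3 were trace, and all 4 tested genes were upregulated. *KCNH2* had 6, 3, and 9 counts with DMSO against 103, 21, and 42 with mocetinostat (0.831 and 17.0 CPM, log2 fold change 4.40 ± 0.38). *KCNH3* had 10, 12, and 12 counts with DMSO against 80, 30, and 37 with mocetinostat, a log2 fold change of 3.37. *KCNH1* had 57, 16, and 34 counts with DMSO against 82, 23, and 33 with mocetinostat, and its log2 fold change was the lowest of the tested *KCNH* genes at 1.69 (adjusted p = 3.19e-07; 1.05 with an adjusted p of 0.0977 in thinned libraries). A gene on the opposite strand covers 28.1% of *KCNH1* exon bases. *KCNH5* had a log2 fold change of 4.03 from 4, 2, and 1 counts with DMSO.

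*KCNQ* genes encode channels that include those of the M-current, which holds neurons near rest. Of 5 genes, 1 was trace and 4 were tested, of which 3 were upregulated, each with fewer than 10 counts in every DMSO sample. *KCNQ5* (ENSG00000185760, chr6:72621792-73198853) was the main *KCNQ* transcript in the controls, with 335, 136, and 209 counts. It had 79, 25, and 37 counts with mocetinostat, and its level was 29.8 ± 1.31 and 15.5 ± 0.164 CPM. All 3 treated samples were lower than all 3 controls. The log2 fold change was −0.94 ± 0.19 (adjusted p = 8.92e-06), just short of the threshold of −1. It passed that threshold without the filter (−1.19), in thinned libraries (−1.21), and without DMSO replicate 2 (−1.01), whereas scaling to *GAPDH* gave −0.40 (adjusted p = 0.0544). *KCNQ3* had 2, 1, and 1 counts with DMSO against 31, 8, and 16 with mocetinostat, a pooled ratio of 34.3 (interval 12.7 to 130.4). *KCNQ1*, the cardiac member, was trace. Per kilobase, *KCNQ5* was 91.2% ± 5.48 of the class with DMSO and 20.8% ± 0.696 with mocetinostat. The shares did not overlap between conditions, in a design in which an exact 2-sided permutation test of 3 against 3 samples cannot give a p below 0.1.

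The auxiliary *KCNAB*, *KCNE*, and *KCNIP* subunits, which bind Kv pores and change their gating or delivery to the membrane, were the class of potassium channel genes with the fewest calls. Of 12 genes, 1 was silent, 6 were trace, and 5 were tested, of which 1 was upregulated. *KCNAB2* had 43, 32, and 28 counts with DMSO against 94, 50, and 31 with mocetinostat (4.89 and 20.8 CPM, log2 fold change 2.09 ± 0.28). *KCNAB3* had 52, 43, and 54 counts with DMSO against 41, 25, and 33 with mocetinostat. Its groups overlapped in CPM, and its log2 fold change was 0.74 (adjusted p = 0.0241; 0.146 with DESeq2, 0.242 without the filter, and 0.189 in thinned libraries), with an adjusted p of 0.209 without DMSO replicate 1, 0.131 without mocetinostat replicate 2, and 0.107 without mocetinostat replicate 3, and with a log2 fold change of 1.05 (adjusted p = 0.00638) without mocetinostat replicate 1. *KCNIP2* had 27, 8, and 24 counts with DMSO against 10, 6, and 2 with mocetinostat, with overlapping groups (log2 fold change −0.36, 0.17 when scaled to *GAPDH*, adjusted p = 0.569). *KCNIP3* had 54, 24, and 30 counts with DMSO against 6, 10, and 23 with mocetinostat (log2 fold change 0.02, −0.0808 with the replicate number as a block, −0.83 without mocetinostat replicate 3 and 0.75 without mocetinostat replicate 1). *KCNE4* had an adjusted p of 0.172.

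Channels opened by calcium or sodium link internal ions to the membrane potential. Of 12 genes, 2 were silent, 3 were trace, and 7 were tested, of which 5 were upregulated. *KCNMA1* (ENSG00000156113, chr10:76869601-77638369), the pore of the large-conductance BK channel, had the highest CPM of all members with DMSO. It had 1172, 502, and 683 counts and 446, 122, and 197 counts, or 103.7 ± 2.77 and 81.9 ± 6.41 CPM. The groups did not overlap, but the log2 fold change was small, at −0.33 ± 0.11 (adjusted p = 0.00694), and it was 0.21 when scaled to *GAPDH*. *KCNMB4*, a β subunit of the same channel best known from brain, had 3, 0, and 5 counts with DMSO against 48, 14, and 23 with mocetinostat (log2 fold change 4.63, 5.44 without DMSO replicate 3). The ratio of *KCNMB4* to *KCNMA1* per kilobase was 0.0208, 0, and 0.0594 with DMSO and 0.873, 0.931, and 0.947 with mocetinostat. These ratios use joined exon lengths of 4860 and 39437 bases. Their size depends on those lengths and is no measure of subunits per channel, whereas their change between conditions does not depend on length. The other tested β subunit, *KCNMB3*, did not pass the test (log2 fold change 0.23, adjusted p = 0.627; −0.02 without the filter, −0.038 without DMSO replicate 2, and −0.0102 without mocetinostat replicate 1), and the exons of *PIK3CA* on the opposite strand cover 38.0% of its exon bases.

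All 4 *KCNN* genes, the small- and intermediate-conductance calcium-activated channels, were upregulated. Only *KCNN3* of them reached the filter's limit of 2.01 CPM in all 3 DMSO samples. *KCNN2* had fewer than 10 counts in each of those samples, where every tested gene was upregulated. *KCNN3* had 113, 57, and 91 counts with DMSO against 165, 41, and 82 with mocetinostat, and rose from 11.8 ± 1.60 to 30.7 ± 4.63 CPM (log2 fold change 1.41 ± 0.19, adjusted p = 1.79e-09). *KCNN1* had 9, 13, and 4 counts with DMSO against 80, 20, and 37 with mocetinostat (3.61, and 4.27 without DMSO replicate 2). *KCNN2* had 1, 1, and 2 counts with DMSO against 35, 10, and 6 with mocetinostat, a pooled ratio of 31.8 (interval 11.7 to 121.3). *KCNN4*, the intermediate-conductance channel of blood cells and epithelia, had a log2 fold change of 2.40. The sodium-activated *KCNT1* was trace and *KCNT2* silent.

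Inward rectifiers of the *KCNJ* family set the resting potential and include channels gated by G proteins and by ATP. Most were below the test, with 1 of 16 silent and 10 trace. Of 5 tested genes, 3 were upregulated, each with fewer than 10 counts in every DMSO sample. *KCNJ10*, known from glia, had 4, 1, and 0 counts with DMSO against 39, 6, and 18 with mocetinostat (log2 fold change 4.79 ± 0.62, and 5.81 without DMSO replicate 1). *KCNJ2*, the strong inward rectifier of muscle and many other cells, had 1, 5, and 8 counts with DMSO against 58, 20, and 24 with mocetinostat (4.07, between 3.27 without DMSO replicate 1 and 4.71 without DMSO replicate 3). *KCNJ6*, gated by G proteins, had a log2 fold change of 2.91. *KCNJ12* had 72, 27, and 65 counts with DMSO against 64, 14, and 31 with mocetinostat, or 7.24 and 11.4 CPM (log2 fold change 0.69 ± 0.28, adjusted p = 0.0242). That p was 0.191 with DESeq2, 0.277 without the filter, and 0.314 in thinned libraries. It was 0.09 without DMSO replicate 1, 0.106 without DMSO replicate 2, 0.144 without mocetinostat replicate 1, and 0.0741 without mocetinostat replicate 3, whereas scaling to *GAPDH* made the gene upregulated (1.23). *KCNJ18* is a near-identical copy of *KCNJ12*, so that reads could be split between them and both are uncertain. *KCNJ14* had 25, 16, and 19 counts with DMSO against 8, 1, and 3 with mocetinostat. Its log2 fold change of −1.06 ± 0.57 was the lowest of the members but did not pass (adjusted p = 0.0965).

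Two-pore-domain *KCNK* channels carry the background potassium leak. Of 15 genes, 5 were silent, 5 were trace, and all 5 tested genes were upregulated. *KCNK6* had 60, 32, and 46 counts with DMSO against 67, 34, and 37 with mocetinostat, and rose from 6.29 to 16.6 CPM (log2 fold change 1.35 ± 0.27). It was not called by glmTreat (adjusted p = 0.142) or in thinned libraries (log2 fold change 0.65, adjusted p = 0.263). *KCNK5*, a channel opened by alkaline pH, had 20, 12, and 29 counts with DMSO against 97, 29, and 34 with mocetinostat (2.63 ± 0.31). *KCNK1* had a log2 fold change of 4.14. *KCNK3*, a channel closed by acid, had 3, 0, and 2 counts with DMSO against 29, 6, and 7 with mocetinostat, a pooled ratio of 21.0 (interval 8.31 to 67.9). *KCNK15* had 2, 0, and 0 counts with DMSO against 13, 8, and 8 with mocetinostat, a ratio of 36.2 (interval 9.16 to 313); its log2 fold change was 4.93, and 6.81 without DMSO replicate 1, which held both control reads. *RIMS4* covers 20.1% of its exon bases on the opposite strand, and *RIMS4* counts went from 18, 4, and 7 to 430, 149, and 223.

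Voltage-gated sodium channel α subunits were each detected above the silent limit, although 6 of 10 were trace. Of the 4 tested genes, 3 were upregulated. *SCN8A* (ENSG00000196876, chr12:51590266-51812864), a channel of axons, was the main transcript in the controls. It had 503, 239, and 331 counts with DMSO against 201, 72, and 81 with mocetinostat, or 48.0 ± 2.23 and 39.4 ± 5.54 CPM. Its treated samples were all lower than the controls, but the test did not pass (log2 fold change −0.29 ± 0.14, adjusted p = 0.0585), and the value was 0.24 when scaled to *GAPDH*. The adjusted p of *SCN8A* was under 0.05 without the filter (0.00106), without DMSO replicate 1 (0.0287), and without mocetinostat replicate 2 (0.0225), and not in the other alternatives. *SCN9A* (ENSG00000169432, chr2:166195185-166376001), the channel of pain-sensing neurons, had 2, 1, and 0 counts with DMSO against 154, 50, and 93 with mocetinostat. It rose from 0.130 to 33.4 ± 4.50 CPM, a pooled ratio of 247.1 with an interval from 83.7 to 1205 (adjusted p = 1.53e-27). The antisense gene *SCN1A-AS1*, which covers 11.4% of its exon bases, had 4, 2, and 2 counts with DMSO against 5, 1, and 7 with mocetinostat.

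*SCN3A*, a channel of the embryonic brain, had a log2 fold change of 3.22. Per kilobase, *SCN8A* was 77.4% ± 1.31 of the sodium α class with DMSO and 28.6% ± 3.50 with mocetinostat, and *SCN9A* was 0.284% ± 0.247 and 33.2% ± 4.86. *SCN9A* per *SCN8A* was 0.00542, 0.0057, and 0 with DMSO and 1.04, 0.947, and 1.57 with mocetinostat. All 3 tested β subunits, which anchor the α subunits and speed their gating, were upregulated, and *SCN2B* was silent. *SCN3B* had 7, 3, and 10 counts with DMSO against 69, 40, and 35 with mocetinostat (log2 fold change 4.21 ± 0.40). *SCN4B* had a log2 fold change of 3.20.

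**Figure D2:**
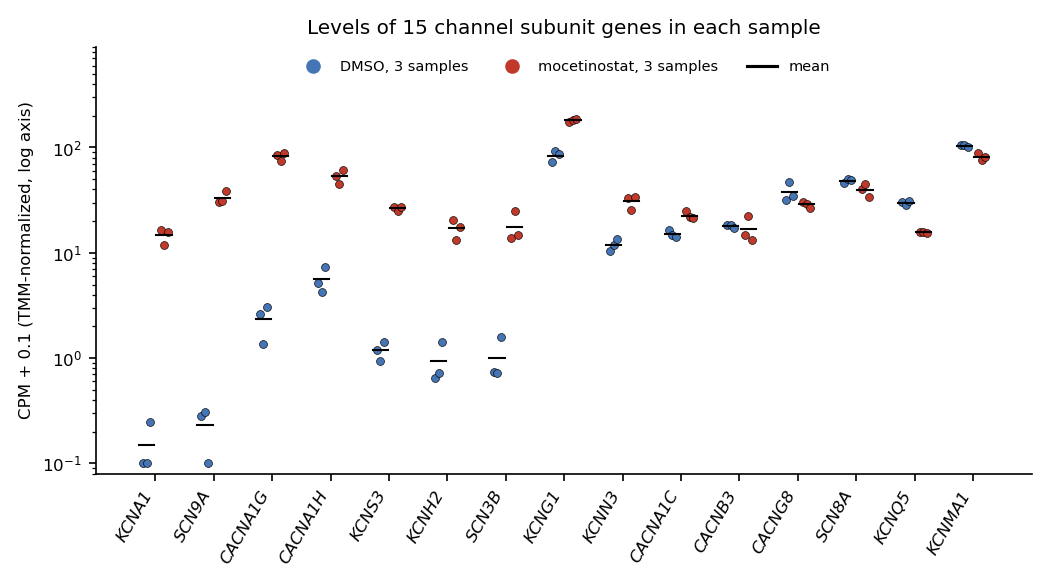
Each point is 1 sample's level (y axis, TMM-normalized CPM plus 0.1, log axis) for 15 channel subunit genes (x axis), with 3 DMSO samples in blue, 3 mocetinostat samples in red, and a line at each mean. From *KCNA1* to *SCN3B* the red points lie well above the blue, whereas *CACNB3* overlaps and *KCNQ5* and *KCNMA1* lie lower in red, the latter turning when scaled to *GAPDH* (0.21 on the log2 scale).

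The calcium channel α1 subunits form the pores of the T-type, L-type, P/Q-type, N-type, and R-type channels. Of 10 genes, 1 was silent, 2 were trace, and 7 were tested, of which 6 were upregulated and the other, *CACNA1C*, passed the adjusted p only. All 3 T-type genes, whose channels open near the resting potential, rose. Only *CACNA1H* of them reached the filter's limit of 2.01 CPM in all 3 DMSO samples. *CACNA1I* had fewer than 10 counts in each of those samples, where every tested gene was upregulated. *CACNA1G* (ENSG00000006283, chr17:50560715-50627474) had 28, 6, and 20 counts with DMSO against 431, 119, and 212 with mocetinostat, 2.24 ± 0.885 and 82.4 ± 7.55 CPM (log2 fold change 5.12 ± 0.20, adjusted p = 2.56e-35). *CACNA1H* had 56, 20, and 49 counts with DMSO against 272, 73, and 147 with mocetinostat, 5.48 ± 1.57 and 53.4 ± 7.86 CPM (3.28 ± 0.20). *CACNA1I* had 0, 0, and 2 counts with DMSO against 27, 13, and 9 with mocetinostat, a pooled ratio of 61.2 (interval 16.1 to 519.2); the fitted 5.61 was 7.77 without DMSO replicate 3 and 4.77 without DMSO replicate 1.

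Of the L-type genes, *CACNA1D*, the pore of pacemaking and endocrine cells, had 7, 1, and 4 counts with DMSO against 82, 27, and 46 with mocetinostat (0.477 and 17.4 CPM, log2 fold change 4.98 ± 0.41). *CACNA1C*, the pore of heart and smooth muscle, had 179, 71, and 95 counts with DMSO against 124, 35, and 51 with mocetinostat, or 14.99 ± 1.11 and 22.5 ± 1.85 CPM. The groups did not overlap, and the log2 fold change was 0.60 ± 0.20 (adjusted p = 0.00616). That p was 0.0793 with DESeq2, 0.243 without the filter, 0.333 in thinned libraries, and 0.0761 without mocetinostat replicate 1, whereas scaling to *GAPDH* made the gene upregulated (1.14). *CACNA1S*, the pore of skeletal muscle, was silent, and *CACNA1F*, that of the retina, was trace. *CACNA1A*, the P/Q-type pore of nerve endings, had 86, 48, and 61 counts with DMSO against 183, 62, and 82 with mocetinostat, and rose from 8.92 to 36.2 CPM (2.04 ± 0.20). *CACNA1E*, the R-type pore, had a log2 fold change of 3.03, and *CACNA1B*, the N-type pore, was trace. Per kilobase, *CACNA1C* was 34.1% ± 6.84 of the α1 class with DMSO and 4.93% ± 0.554 with mocetinostat, *CACNA1G* was 12.3% ± 3.39 and 45.6% ± 0.865, and *CACNA1H* was 35.7% ± 4.03 and 34.4% ± 2.21.

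**Figure D3:**
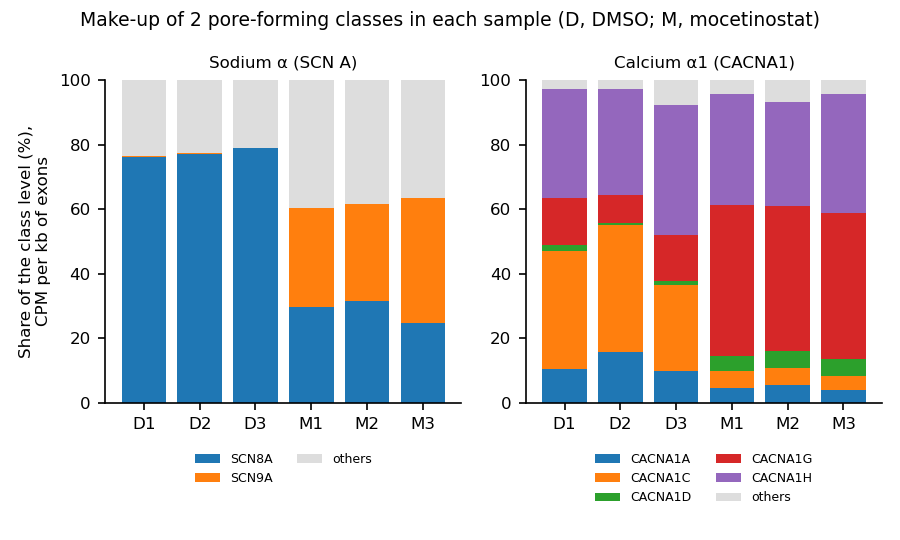
Stacked bars give the share (y axis, percent) of each gene in the summed CPM per kilobase of its class in DMSO (D1 to D3) and mocetinostat (M1 to M3) samples, for the sodium α and calcium α1 classes, with genes not named in gray. *SCN8A* holds most of its class in the 3 DMSO samples and less in the 3 mocetinostat samples, where *SCN9A* and *CACNA1G* hold more.

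The accessory calcium channel subunits moved less uniformly. Both tested α2δ genes, whose products carry the pore to the surface, were upregulated. *CACNA2D2* had 70, 18, and 30 counts with DMSO against 92, 46, and 47 with mocetinostat (4.83 and 22.1 CPM, log2 fold change 2.07), and *CACNA2D3* had 14, 3, and 6 counts with DMSO against 40, 6, and 13 with mocetinostat (2.60). *CACNA2D1* and *CACNA2D4* were trace. Among β subunits, which bind the pore inside the cell, the 2 abundant genes did not pass the test. *CACNB1* had 15.7, 22.7, and 17.4 CPM with DMSO and 20.02, 28.5, and 15.3 CPM after treatment (means of 18.6 and 21.3; log2 fold change 0.17 ± 0.20, adjusted p = 0.472; −0.08 without the filter and −0.03 without mocetinostat replicate 2). *CACNB3* had 202, 88, and 116 counts with DMSO against 74, 36, and 32 with mocetinostat (17.9 and 16.8 CPM; −0.16 ± 0.21, adjusted p = 0.521; 0.38 when scaled to *GAPDH* and 0.19 in thinned libraries). *CACNB4*, known from brain, had 8, 0, and 3 counts with DMSO against 35, 13, and 17 with mocetinostat and was upregulated (3.88 ± 0.54, and 4.65 without DMSO replicate 1).

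The *CACNG* genes encode γ subunits, several of which (*CACNG2*, *CACNG3*, *CACNG4*, *CACNG5*, *CACNG7*, and *CACNG8*) are better known as accessory proteins of AMPA-type glutamate receptors. Of 8 genes, 3 were silent, 1 was trace, and 4 were tested. *CACNG7* had 82, 45, and 48 counts with DMSO against 157, 61, and 52 with mocetinostat, and rose from 7.95 to 30.2 CPM (log2 fold change 1.93 ± 0.22, adjusted p = 2.93e-12). *CACNG4* had 46, 18, and 31 counts with DMSO against 67, 12, and 37 with mocetinostat and was upregulated (1.57 ± 0.31), though not in thinned libraries. *CACNG8* had 350, 223, and 234 counts with DMSO against 153, 47, and 64 with mocetinostat, or 37.5 ± 7.84 and 28.7 ± 1.95 CPM (−0.36 ± 0.16, adjusted p = 0.0474; 0.18 when scaled to *GAPDH*). That p was 0.0702 with the replicate number as a block, 0.0613 with RLE size factors, 0.0579 with library size only, 0.135 with DESeq2, 0.127 with at least 10 counts in every sample, and 0.406 in thinned libraries. It was 0.287 without DMSO replicate 2 and between 0.0561 and 0.118 without each mocetinostat replicate. The adjusted p stayed under 0.05 without the filter (0.00101), without DMSO replicate 1 (0.00678), and without DMSO replicate 3 (0.0252). *CACNG6* had 54, 14, and 28 counts with DMSO against 12, 3, and 4 with mocetinostat, with groups apart (−0.98 ± 0.48, adjusted p = 0.0667). Without DMSO replicate 2 it was downregulated at −1.17 (adjusted p = 0.0401).

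By CPM per kilobase, the highest members with DMSO were *KCNG1* (15.5), *CACNG8* (4.24), *CACNG7* (2.78), *KCNQ5* (2.63), and *KCNMA1* (2.63). With mocetinostat they were *KCNG1* (33.5), *CACNG7* (10.5), *KCNS3* (8.47), *CACNA1G* (8.18), and *CACNA1H* (6.19). *KCNQ5* moved from rank 4 to rank 34 and *KCNMA1* from rank 5 to rank 25, while *KCNS3* moved from rank 31 to rank 3 and *CACNA1G* from rank 37 to rank 4.

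Members that lie next to each other in the genome included pairs of different kinds. Stretches with gaps of 500 kb or less held 54 members in 23 stretches. On chromosome 12, *KCNA1* was upregulated between *KCNA6*, at 0 in every sample, and *KCNA5*, with 1 read in all. On chromosome 2, *SCN9A* lay between *SCN1A* (6, 2, and 3 counts with DMSO against 16, 1, and 8 with mocetinostat) and *SCN7A* (0, 0, and 0, then 3, 0, and 5), both trace, and *SCN3A* was upregulated beside the trace gene *SCN2A*. On chromosome 19, *CACNG7* was upregulated beside *CACNG8* and *CACNG6*, which were not. On chromosome 17, *CACNG4* was upregulated between the trace gene *CACNG5* and the silent gene *CACNG1*.

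Silent members included the T-tubule and brain γ subunits *CACNG1*, *CACNG2*, and *CACNG3*, the Kv genes *KCNA5*, *KCNA6*, *KCNA10*, *KCNB2*, and *KCNC2*, and the two-pore-domain genes *KCNK4*, *KCNK7*, *KCNK9*, *KCNK17*, and *KCNK18*. Of the 50 trace members, 44 had a higher mean CPM with mocetinostat and 6 a lower one, and no such count was made for all trace genes. DESeq2, which uses a weaker filter, tested 45 of the trace members and called 17 upregulated and 0 downregulated, beside 15.2% and 5.29% of all genes it tested. Those shares cover genes of every level. A share over low genes alone was not taken, so whether trace members differ from them was not tested. Among the 17, *KCNJ9*, a G protein-gated inward rectifier, had 0 counts in each control and 13, 5, and 4 with mocetinostat. *KCNJ11*, the pore of the ATP-sensitive channel, had 0, 1, and 0 counts with DMSO against 8, 7, and 12 with mocetinostat.

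Genes that work with these channels were counted from lists outside the group, beside 20.2% upregulated among all genes tested. Of 22 genes of related pores (HCN, TPC, proton, and epithelial sodium channels, among others), 9 were tested and 7 were upregulated, with *SCNN1A* at a log2 fold change of 3.32 and *HVCN1*, the proton channel, at 2.85; *HCN3* passed the adjusted p only (0.84) and *TPCN2* did not pass. Of 23 channel partners, 8 were tested and 6 were upregulated, among them *FGF13*, which binds sodium channels (4.17), *STAC2* (2.91), and the anchoring proteins *ANK3* (2.61) and *ANK2* (2.48). *SCNN1A* and *FGF13* had fewer than 10 counts in every DMSO sample, where every tested gene was upregulated. *RRAD*, an inhibitor of calcium channels, had a log2 fold change of −0.81 (adjusted p = 1.83e-05). Of 7 sodium-potassium pump genes, 5 were tested and 3 were upregulated, among them *ATP1B2* at 5.04 and *ATP1B1* at 1.38.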

How the data were processed

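RNA-Seq libraries were made by the authors from total RNA of 3 DMSO-treated and 3 mocetinostat-treated TC28a2 samples, with ribosomal RNA depleted after PCR. The authors trimmed the single reads, removed ribosomal reads with SortMeRNA, aligned to GRCh38 with STAR 2.6.1d, and counted with featureCounts 1.6.4 (versions from the submitters' processing notes). The deposited values were whole raw counts per gene, without normalization. Strand and multi-mapping settings are not given in the sources used here, so that genes with exons on the opposite strand (14 tested members with at least 5% of exon bases) or near-identical copies (*KCNE1*, *KCNJ12*, *KCNJ18*) are uncertain.

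From the counts, TMM factors were computed with edgeR 4.0.16 (R 4.3.3). Its filterByExpr, at a minimum count of 10, left 13966 genes of 60623, which were all fitted with treatment as the only term, tested by quasi-likelihood, and adjusted by Benjamini-Hochberg. Calls needed a log2 fold change beyond 1 in either direction with an adjusted p under 0.05. SE is the absolute log2 fold change divided by the square root of F. The biological coefficient of variation was 9.30%. Pooled ratios have exact 95% intervals, and intervals and the 3-count limit cover counting error only. Levels between genes were compared as CPM per kilobase of exons (GENCODE 44, GRCh38). The exons of all annotated transcripts of a gene were joined, which can far exceed the length of the transcript present. Shares, ranks, and ratios between genes are therefore approximate. The authors' counts came from Ensembl build 98. Replicates within a condition differed by more than sampling noise (chi-square per degree of freedom 1.93 to 7.95). The p-values set the treatment difference against the spread between these samples, which was estimated with information from all tested genes.

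The members and gene lists were chosen with earlier results of these data known. Values per sample are given for the tested members with the highest and lowest log2 fold change in each class, for members whose mean reached 10 CPM in a condition, and for the 5 upregulated members with the largest lower limit among those with 3 counts or fewer in every DMSO sample. Other genes with values were chosen after these were seen. The alternatives were DESeq2 1.42.0, RLE size factors, library size only, *GAPDH* scaling, no filter, glmTreat, a block for the replicate number, at least 10 counts in every sample, libraries thinned to equal size, other limits for silent genes, and each sample left out. The fit was also run on simulated counts with known changes, placed only in genes that passed the filter. That run could not show how the filter acts on genes low with DMSO. Several members that this rule names are not reported here by name, and they stay in all counts. The study's other assays were not analysed here.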

Additional observations from a re-analysis of the deposited data

How the results depend on the processing

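The 48 upregulated members were 64 with DESeq2 and without a filter, 52 with *GAPDH* scaling, 45 with glmTreat, 51 by the adjusted p alone, and 48 with RLE factors or library size only. They were 16 with at least 10 counts in every sample (32 of the 48 were not tested), 27 in thinned libraries, and 14 among genes at the limit in all 3 DMSO samples. Leaving out 1 sample gave between 49 and 58. The count of 0 downregulated members became 2 without a filter, 1 in thinned libraries, 3 by the adjusted p alone, and between 0 and 2 with 1 sample left out, the 2 being *KCNQ5* and *CACNG6* without DMSO replicate 2. DESeq2 kept 47 of the 48 calls.

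The 21 silent members were 3 when 0 counts were required, 55 at fewer than 10 counts, 40 in thinned libraries, and between 22 and 31 with 1 sample left out. The 64 tested members were 25 with at least 10 counts in every sample, 40 in thinned libraries, and between 67 and 76 with 1 sample left out. At equal, lower depth fewer members were thus tested and more were silent.

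*GAPDH* scaling moved the median of all genes by 0.54 (log2) and called 31.7% of all genes up and 2.03% down, against 20.2% and 8.18%; no filter moved that median by −0.25. The sign turned with *GAPDH* scaling for *KCNMA1* (0.21), *SCN8A* (0.24), *CACNG8* (0.18), *KCNIP2* (0.17), and *CACNB3* (0.38, and 0.19 in thinned libraries), and for *CACNB1* without a filter (−0.0763) and with 1 sample left out (between −0.0311, without mocetinostat replicate 2, and 0.323). It also turned for *KCNMB3* (without a filter and in 2 fits with 1 sample left out) and *KCNIP3* (without a filter, −0.234; block, −0.0808; thinned, −0.119; and in 3 fits with 1 sample left out), neither of which passed the test. With the replicate number as a block, 48 members were upregulated and 0 downregulated, and *CACNG8* no longer reached an adjusted p of 0.05 (0.0702). Same-numbered samples had correlations of 0.0373, 0.027, and −0.0402 in their deviations, and not every sample correlated best with its own number, so that the numbers were not taken as pairs.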
